A study of Mus musculus with 18 samples.

Results

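Microglia were compared with astrocytes sorted from the same brains of App knock-in mice. The members were the 10 libraries of the raw count tables whose names carry APP_C3WT, 5 of microglia and 5 of astrocytes, out of 18 libraries in the series. Each microglia library was set against the astrocyte library with the same animal number, so the comparison was made within 5 mice. By the labels these mice were APP_NLGF/NLGF on a C57BL/6j background, untreated, 4 female and 1 male, and every library name of the series also carries C3WT. The other 8 libraries came from 4 WT mice, 1 female and 3 male, and were used where the difference between cell types was set against that in WT mice. Whole brains were perfused, dissociated with enzymes, freed of myelin and sorted by flow cytometry. Neither ages nor sort gates were stated in the labels. The knock-in places familial Alzheimer mutations and a humanised amyloid-beta sequence in the mouse App gene and leaves App under its own promoter in every cell that uses it.

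Microglia are the resident macrophages of the brain. They survey the tissue, take up and degrade debris, present antigen and release cytokines, and around amyloid plaques they are known to switch from a surveying set of genes to a disease-associated set that includes Cst7, Itgax, Gpnmb and Apoe. Astrocytes clear transmitters and potassium, supply lactate and cholesterol, contact vessels and synapses with their processes, and become reactive near plaques, for which Gfap is the classical marker.

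Levels are given as CPM, read counts divided by the effective library size and scaled to a common total. They are mean ± SD over 5 libraries unless said otherwise, and over 4 libraries for WT. WT values, and APP values in the comparison with WT mice, were scaled over all 18 libraries. Those APP values differ slightly from the ones given elsewhere. A log2 difference is microglia minus astrocytes within the mouse, with its standard error (SE), so a positive value means a higher level in microglia. Called genes passed a Benjamini-Hochberg adjusted p of 0.05 over all genes tested in edgeR's quasi-likelihood test. Microglia libraries held 11858295 to 18363154 counts and astrocyte libraries 18125387 to 22522407. Genes with any count numbered 16146 to 16469 and 17188 to 17463. The ribosomal RNA gene Rn45s took 3.2 to 6.46% of counts in microglia, with the library of mouse 5 highest, and 2.6 to 5.26% in astrocytes. The first principal component held 94.6% of the variance and separated the cell types.

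Both sorts held their own markers, and each held a small amount of the other's. The 25 microglia markers summed to 64113 ± 4244 CPM in microglia and 491 ± 65.3 CPM in astrocytes, which was 0.596 to 0.907% of the level in the same mouse's microglia. The 25 astrocyte markers summed to 48197 ± 3474 CPM in astrocytes and 1836 ± 923 CPM in microglia. As a share of the same mouse's astrocytes this was 4.1, 3.09, 3.09, 7.23 and 1.85% in mice 1 to 5, so the microglia of mouse 4 held the most astrocyte marker RNA and those of mouse 5 the least. All 25 microglia markers were higher in microglia, by log2 5.41 to 7.62, and all 25 astrocyte markers were higher in astrocytes, by 3.54 to 5.35 on the log2 scale. These lists describe the sort and support no result. In bulk RNA a smaller number of cells of a type and less RNA per cell cannot be told apart.

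Markers of cells outside both types were also seen, and mostly in the astrocyte libraries. Endothelial markers summed to 6719 ± 977 CPM in astrocytes and 879 ± 116 CPM in microglia, and all 20 were higher in astrocytes. Mural and fibroblast markers stood at 3424 ± 238 against 352 ± 38.5 CPM, with 17 of 17 higher in astrocytes, and ependymal and choroid plexus markers at 1352 ± 371 against 288 ± 73.8 CPM, with 13 of 13. Oligodendrocyte markers ran from 763 to 4286 CPM in astrocytes, with mouse 4 alone above 1254, and from 419 to 906 CPM in microglia. Border macrophage markers leaned the other way, 599 ± 130 CPM in microglia against 43.4 ± 8.26 CPM in astrocytes. Blood leukocyte markers summed to 27.3 ± 2.25 and 0.748 ± 0.36 CPM, and neuron markers to 26.9 ± 7.81 and 313 ± 16.9 CPM. Most of the neuron sum in astrocytes was Map2, at 254 CPM there and 10.6 CPM in microglia when scaled over all 18 libraries. In microglia Map2 was highest in mouse 4 and lowest in mouse 5, as the astrocyte marker list was. The neuron sum therefore does not show neurons in the astrocyte sort. The part of these other cells in the gene differences below was not tested.

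**Figure D1:**
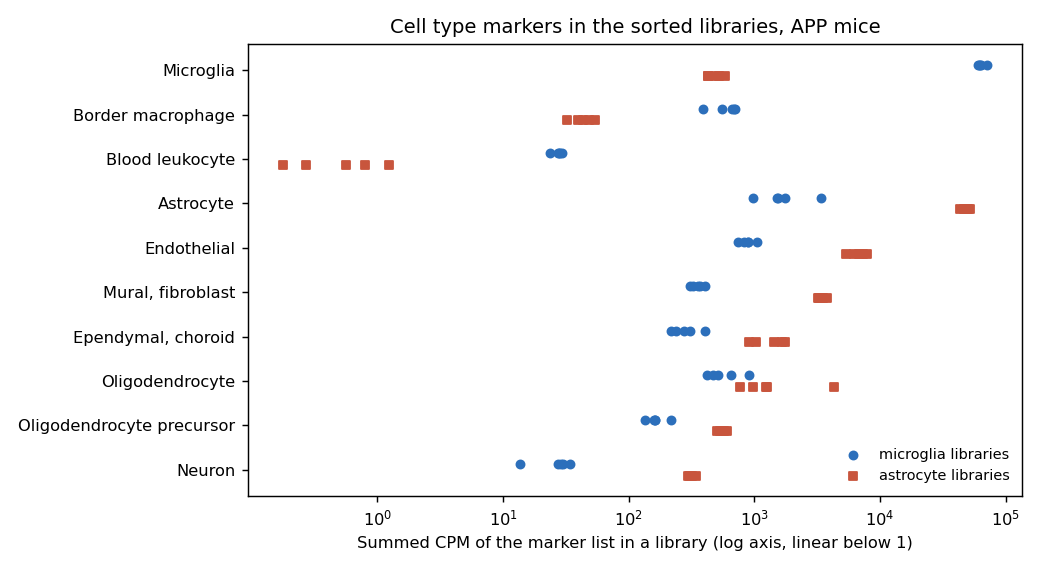
Summed CPM of each marker list (log axis, linear below 1) in the 5 microglia libraries (circles) and 5 astrocyte libraries (squares) of APP mice. Astrocyte libraries carried 5383 to 7900 CPM of endothelial markers, and the oligodendrocyte markers of 1 astrocyte library stood apart at 4286 CPM.

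Cst7, an inhibitor of cysteine cathepsins in disease-associated microglia, stood at 1178, 1297, 1151, 1186 and 1382 CPM in the microglia of mice 1 to 5 and at 6.93, 6.88, 10.8, 5.89 and 7.32 CPM in their astrocytes. Itgax, the CD11c integrin chain, stood at 1674, 1477, 1448, 1580 and 2257 CPM in microglia and at 10.1, 9.48, 12.2, 6.82 and 10.3 CPM in astrocytes. For both genes every microglia library lay above every astrocyte library, and mouse 5 was highest in microglia. The log2 differences were 7.38 ± 0.17 (SE, adjusted p = 7.8e-10) for Cst7 and 7.43 ± 0.18 (adjusted p = 9.5e-10) for Itgax.

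Gfap, the intermediate filament of astrocytes, stood at 276, 266, 343, 369 and 203 CPM in astrocytes and at 34.9, 21.5, 21.7, 56.3 and 8.54 CPM in microglia. Aldoc, the aldolase form typical of astrocytes, stood at 1689, 1782, 1964, 2062 and 2138 CPM in astrocytes and at 61.9, 59.4, 63.5, 132 and 32.9 CPM in microglia. In microglia both genes were highest in mouse 4 and lowest in mouse 5, which is the order of those mice for the whole astrocyte marker list. The groups did not overlap, and the log2 differences were −3.54 ± 0.25 (SE, adjusted p = 6.7e-07) and −4.91 ± 0.27 (adjusted p = 1.2e-07).

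App, the precursor protein of amyloid-beta, was present in both cell types, at 369, 386, 428, 464 and 464 CPM in microglia and 637, 650, 625, 926 and 548 CPM in astrocytes. The groups did not overlap, and microglia were lower by a log2 of −0.66 ± 0.11 (SE, adjusted p = 0.00041). C3, the central complement component, stood at 30.7, 18.6, 29.8, 20.9 and 24.3 CPM in microglia and at 39.8, 48.1, 85.1, 41.9 and 41.5 CPM in astrocytes, a difference of −1.01 ± 0.15 (adjusted p = 0.00018). The high App value belonged to the astrocyte library of mouse 4 and the high C3 value to that of mouse 3. In astrocytes App was highest in mouse 4 and lowest in mouse 5. So were endothelial markers (7900 and 5383 CPM) and oligodendrocyte markers (4286 and 763 CPM). Of these 2 lists only the oligodendrocyte markers stood apart in mouse 4. In WT astrocytes App stood at 205, 578, 531 and 186 CPM in mice 1 to 4. Endothelial markers summed to 1907, 6917, 5363 and 1893 CPM in those libraries. The part of endothelial and of oligodendrocyte RNA in the App level was not tested. Without mouse 4 App differed by −0.58, and without mouse 3 C3 differed by −0.87, both still called.

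**Figure D2:**
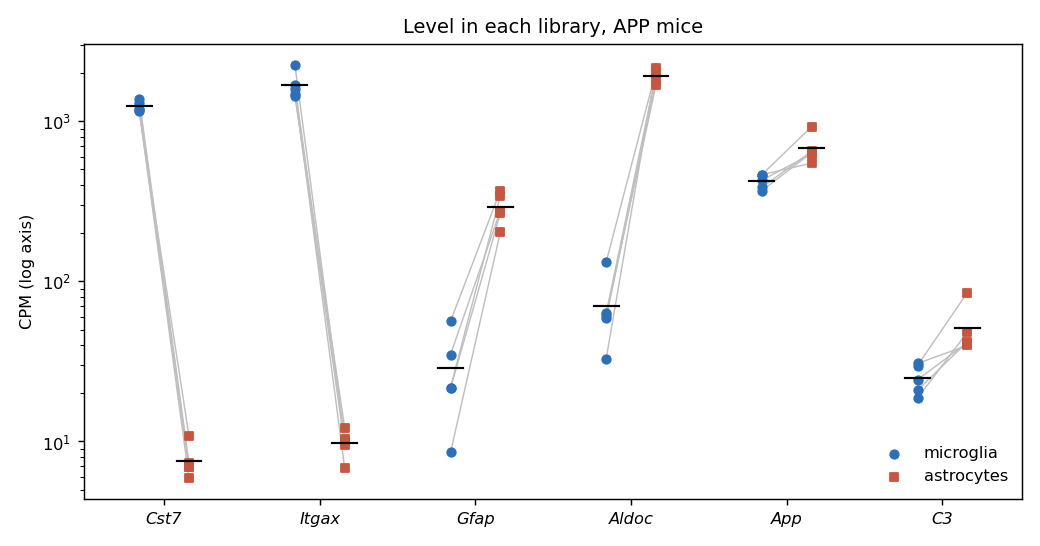
CPM (log axis) of 6 genes in each library of APP mice, with a line joining the microglia (circle) and astrocytes (square) of a mouse and a black bar at the mean. Cst7 and Itgax lie at 1151 CPM or above in microglia and below 13 CPM in astrocytes, and App and C3 differ by about 2-fold or less.

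Across the transcriptome 15016 of 24421 genes were tested and 12598 were called, 83.9%. Of all genes tested 40.5% (6074) were higher in microglia and 43.4% (6524) in astrocytes, and the median log2 difference was −0.05 with quartiles at −1.86 and 0.78. A difference of at least 4-fold was found for 1610 genes in favour of microglia and 3613 in favour of astrocytes. At 32-fold the numbers were 495 (3.3%) and 834 (5.55%). The libraries of the cell types did not overlap for 36.6% of the genes in favour of microglia and 39.9% in favour of astrocytes. With scaling by library totals alone 37.4% of the called genes were higher in microglia in place of 48.2%, and the median of all genes moved to −0.34. Because most genes were called, a list below is described by how its members split and by its median, and nothing is read from the count alone.

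**Figure D3:**
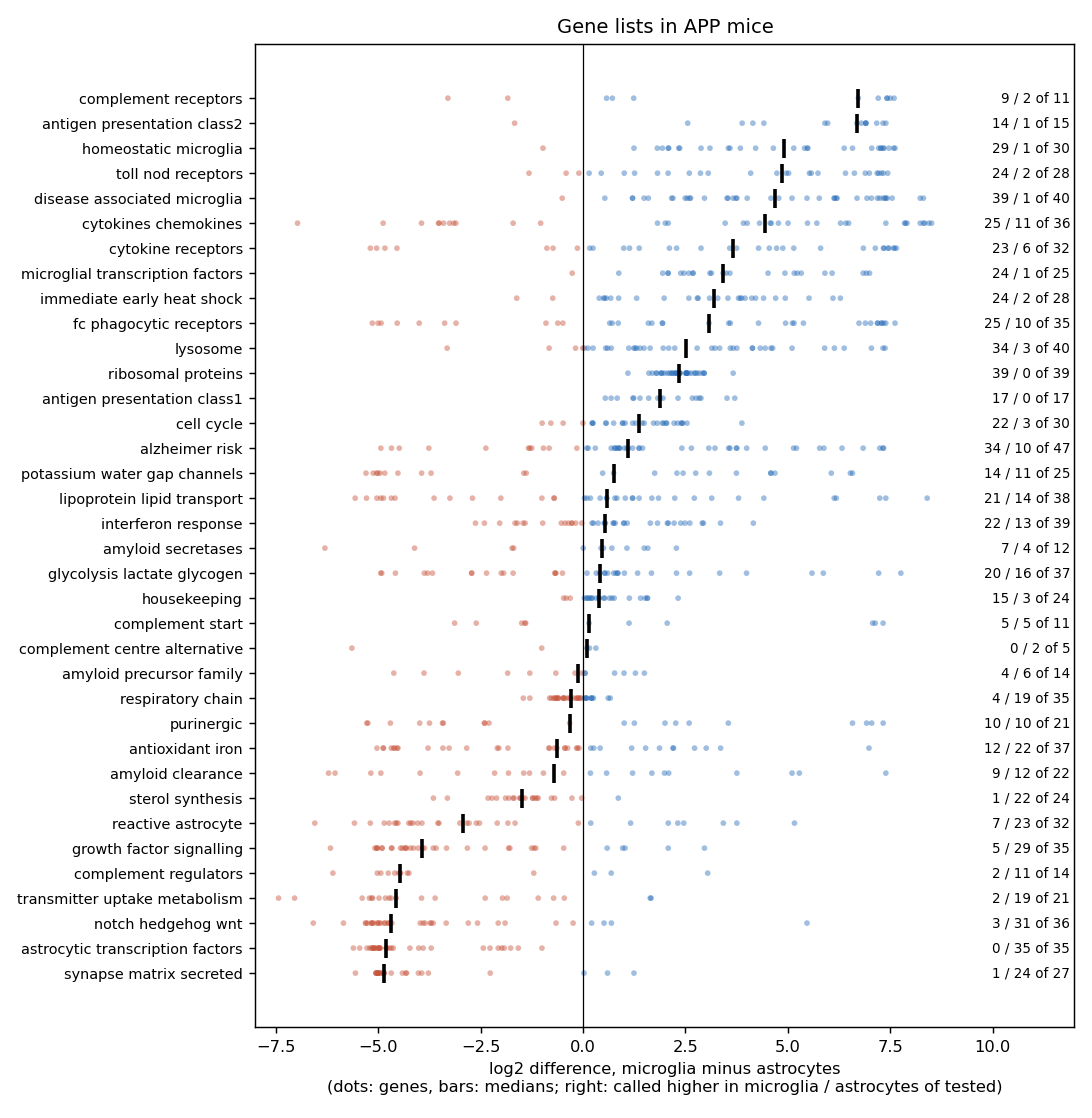
Log2 difference (microglia minus astrocytes, APP mice) of each tested member of 36 gene lists (dots) with the list's median (bar), ordered by median, and the number of members called in each direction. The medians run from −4.87 for secreted synapse and matrix genes to 6.72 for complement receptors, and 3 members with no count in 1 cell type are drawn at their fitted values.

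Among genes at a mean of 50 CPM or more in microglia whose libraries did not overlap, 6 of the 10 largest differences in favour of microglia belonged to inflammatory cytokines and chemokines. Larger fitted differences of genes below that level were not ranked. Tnf, the tumour necrosis factor, stood at 278, 372, 230, 310 and 297 CPM in microglia and at 0.183 to 1.35 CPM in astrocytes, 365-fold apart (log2 8.51 ± 0.23 SE, adjusted p = 1.3e-09). Osm, an interleukin-6 family cytokine, differed by 8.34, the chemokines Ccl4 and Ccl3 by 8.31 and 8.23, and Il1b and Il1a by 7.87 and 7.85. The other genes among these 10 were Olfr111, an olfactory receptor gene (8.18), the niacin receptor Hcar2 (7.84), the checkpoint receptor Pdcd1 (7.78) and the hexokinase Hk3 (7.76). Of the cytokine and chemokine list 25 of 36 tested members were higher in microglia and 11 in astrocytes, with a median of 4.44. The astrocyte side held Cxcl12, at 1060 ± 248 against 8.36 ± 1.8 CPM (−6.97), the fractalkine gene Cx3cl1 (−4.88), the microglial growth factor Il34 (−3.94) and Tgfb2 (−3.53). In the astrocytes of WT mice 1 to 4 Cxcl12 stood at 183, 1085, 822 and 162 CPM. Endothelial markers were likewise lowest in WT mice 1 and 4, and their part in Cxcl12 was not tested.

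The most abundant of the genes at least 32-fold higher in microglia were those of lysosomes, the macrophage growth factor receptor and C1q. Ctsd, which encodes cathepsin D, reached 24750 ± 2574 CPM in microglia and 718 ± 35.3 CPM in astrocytes (log2 5.1). Others among the 10 most abundant were Csf1r, Ctss, Mpeg1, Cx3cr1, Laptm5, C1qc, C1qa and C1qb, whose differences ran from 6.97 to 7.47. Of the lysosome list 34 of 40 were higher in microglia, 3 were higher in astrocytes and the median was 2.51. Cd68 differed by 7.04, while Tmem106b, a lysosomal membrane protein linked to frontotemporal dementia, was higher in astrocytes (−0.83). Trem2, the lipid-sensing receptor of microglia, stood at 1723 ± 200 against 11.3 ± 1.47 CPM (7.25).

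Receptors for pathogens, antibodies and antigen followed the same side with named exceptions. Of the Toll-like and NOD receptor list 24 of 28 were higher in microglia (median 4.85), led by Cd180, Tlr13, Nlrp3 and Cd14 at 7.22 to 7.44. Tlr3, the sensor of double-stranded RNA, was higher in astrocytes, at 197 ± 25.2 against 78.6 ± 5.93 CPM (−1.32, adjusted p = 6e-07), and so was Nod1 (−0.41). Antigen presentation genes of class I were higher in microglia in 17 of 17 and of class II in 14 of 15, with B2m at 3.52 and Cd74 at 7.17. Of the Fc and phagocytic receptor list 25 of 35 were higher in microglia, including Fcgr1, and 10 in astrocytes, including the engulfment receptor Megf10 at 416 against 14.3 CPM (−4.93). The interferon response list was split, 22 to 13 of 39 with a median of 0.53, and Ifit1 stood at 39 ± 8.59 CPM in astrocytes and 6.31 ± 1.32 CPM in microglia (−2.63). In the astrocytes of WT mice 1 to 4 Nod1 stood at 18.3, 36.6, 37.1 and 17.6 CPM. Ifit1 stood there at 8.85, 25.2, 20.6 and 6.4 CPM. WT mice 1 and 4 were also lowest in endothelial markers, whose part in both genes was not tested.

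Disease-associated and homeostatic microglial genes lay on the microglial side alike. Both lists name genes known from microglia, so this split describes the sort and supports no result. Of the disease-associated list 39 of 40 were higher in microglia, with a median of 4.68, and the exception was Cspg4, also a marker of pericytes and oligodendrocyte precursors (−0.51). Of the homeostatic list 29 of 30 were higher in microglia, with a median of 4.9, and the exception was the adhesion receptor Adgrg1 (−0.98). P2ry12, a purine receptor of surveying microglia, stood at 1532 ± 84.3 against 16.1 ± 1.85 CPM. In astrocyte libraries the 19 disease-associated members at least 32-fold higher in microglia stood at a median of 0.766% of their microglial level (0.318 to 2.9%). The 15 such homeostatic members stood at 0.676% (0.512 to 2.82%) and the 15 such cytokine genes at 0.434% (0 to 3.12%). The 3 such immediate early genes stood at 1.46% (1.28 to 2.19%). Taken gene by gene, the microglia markers stood at a median of 0.6445% (0.5125 to 2.502%). The immediate early genes therefore lay above the median of the markers but within their range. The part of microglial RNA in the astrocyte libraries was not tested.

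Most listed transcription factors lay on the side of the lineage they were listed for. The lists name factors known from each lineage, so this split describes the sort and supports no result. Of 25 tested microglial factors 24 were higher in microglia (median 3.42), among them Ikzf1 (7), Irf8 (6.92) and Spi1, which encodes PU.1, the master regulator of macrophage genes, at 170 ± 9.52 against 1.49 ± 0.38 CPM (6.84). The exception was Bhlhe40, at 135 against 162 CPM (−0.26). All 35 astrocytic factors were higher in astrocytes (median −4.81), led by Id1 (−5.61), Irx5 (−5.45), Sox9 (−5.28) and Rorb (−5.21). Id1 stood at 26, 103, 71 and 36 CPM in the astrocytes of WT mice 1 to 4. Endothelial markers were likewise lowest in WT mice 1 and 4, and their part in Id1 was not tested.

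The letters of the PU.1 core site, GAGGAAGT on either strand, were counted in RefSeq promoters of GRCm38.p6 spanning 250 bases before to 50 after a gene's start. Of 244 genes at least 32-fold higher in microglia at 50 CPM or more, 183 had a promoter in the table, and 30 of their 231 promoters (13%) held the letters. They were in 3 of 260 promoters (1.15%) of the genes equally higher in astrocytes, in 2.92% of the promoters of all genes tested and in 3.2% of all 32851 promoters. The letters of the interferon regulatory factor site were in 8 of 231 and 2 of 260 promoters of these sets and in 3.03% and 3.44% of the wider ones, and the E-box CACGTG, over the 4 sets in the same order, in 9.09%, 5%, 9.41% and 7.15%. The letters of the nuclear factor I site were in none of the promoters of either set and in 0.0397% of those of the genes tested. A match describes the letters and is not a measured binding site. The promoters of C1qc, Inpp5d, Havcr2 and Vav1 are shown as examples, chosen after their values were seen, because the letters lie wholly before the start. C1qc is a C1q chain, Inpp5d a phosphatase at an Alzheimer risk locus, Havcr2 the TIM-3 receptor and Vav1 a blood-cell exchange factor, and their differences were 7.13, 5.88, 7.11 and 7.27. Sequences end at the last base before the start, read 5′ to 3′ on the gene's strand, with the PU.1 letters or their reverse complement in capitals.
C1qc, chr4:136892915-136893114, minus strand: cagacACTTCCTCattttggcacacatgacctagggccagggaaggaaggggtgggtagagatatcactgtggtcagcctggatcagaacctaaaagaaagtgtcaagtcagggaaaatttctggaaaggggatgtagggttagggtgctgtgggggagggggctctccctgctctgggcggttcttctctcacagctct
Inpp5d, chr1:87620212-87620311, plus strand: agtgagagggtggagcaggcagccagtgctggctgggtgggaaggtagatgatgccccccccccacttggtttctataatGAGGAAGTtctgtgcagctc
Havcr2, chr11:46454831-46454930, plus strand: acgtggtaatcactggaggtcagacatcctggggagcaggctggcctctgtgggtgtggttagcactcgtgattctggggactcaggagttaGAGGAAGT
Vav1, chr17:57279000-57279099, plus strand: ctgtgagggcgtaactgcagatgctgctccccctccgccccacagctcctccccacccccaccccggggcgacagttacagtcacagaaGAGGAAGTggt
The letters began 195 bases before the start in C1qc, 20 in Inpp5d, 8 in Havcr2 and 11 in Vav1.

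On the astrocyte side the most abundant of the genes at least 32-fold higher were carriers, junction and membrane proteins. Slc6a11, a GABA transporter, stood at 4211, 4989, 4926, 3704 and 5957 CPM in astrocytes and at 120, 115, 114, 321 and 82.3 CPM in microglia (−5.16 ± 0.37 SE, adjusted p = 7.3e-07). Gja1, the gap junction protein connexin 43, stood at 4273 ± 480 against 123 ± 76.5 CPM (−5.3). Others among the 10 most abundant were Atp1b2, Ppap2b, Slc4a4, Ntrk2, Gpr37l1, Ptprz1 and Spock2. In microglia Slc6a11 and Gja1 were highest in mouse 4 and lowest in mouse 5, as the astrocyte marker list was. Of the list of transmitter uptake and metabolism 19 of 21 were higher in astrocytes and 2 in microglia (median −4.56). Of the potassium, water and gap junction list 11 of 25 were higher in astrocytes and 14 in microglia, the latter with the potassium channel Kcnk6 (6.06), the cation channel Trpm2 (6.58) and the proton channel Hvcn1 (6.53). The Notch, hedgehog and Wnt list split 31 to 3 of 36 in favour of astrocytes, the growth factor list 29 to 5 of 35, and the secreted synapse and matrix list 24 to 1 of 27.

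Ranked in the same way, among genes at 50 CPM or more in astrocytes, the 10 largest differences in favour of astrocytes included several genes known from vessels, and 3 of the 10 (Slco1a4, Abcb1a and Cldn5) are on the endothelial marker list. Adgrl4, an endothelial adhesion receptor, stood at 312 CPM in astrocytes and 1.68 CPM in microglia (−7.52), followed by Robo4 (−7.48), Hmcn1 (−7.31), Clic5 (−7.2), Slco1a4 (−7.19), Prom1 (−7.12), Spock2 (−7.11), Sox18 (−7.05), Abcb1a (−7.04) and Cldn5 (−7.03). Cldn5, the claudin of the blood-brain barrier, stood at 504, 478, 384, 539 and 326 CPM in astrocytes and at 2.55 to 4.36 CPM in microglia. All 20 endothelial markers were higher in astrocytes with a median of −5.66, while the 25 astrocyte markers had a median of −4.96 and reached at most −5.35. Endothelial RNA moved with the cell type, and its part in other genes of the astrocyte side was not tested. Of the reactive astrocyte list 23 of 32 were higher in astrocytes and 7 in microglia (median −2.92). Its astrocyte side included Cd109 (−6.55), Tm4sf1 (−5.58), the oncostatin receptor Osmr (−5.19) and Serpina3n, a reactive astrocyte protease inhibitor at 92.5 ± 30.9 against 3.16 ± 1.47 CPM (−4.85). Ctsb (3.76), Clcf1 (5.16) and Fkbp5 (3.43) of the same list were higher in microglia.

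Of complement genes, receptors lay mostly with microglia and regulators mostly with astrocytes, while the initiating components were split. C1qa, which starts the classical pathway with C1qb and C1qc, stood at 3539, 4053, 4291, 3740 and 4512 CPM in microglia and at 26.6 to 32.8 CPM in astrocytes (7.07 ± 0.15 SE, adjusted p = 5.5e-10). The next component, C4b, lay on the astrocyte side, at 457, 392, 451, 446 and 340 CPM against 104, 52.8, 64.2, 77.7 and 53 CPM in microglia (−2.61 ± 0.12 SE, adjusted p = 2.8e-08). The proteases C1s1 (−3.13), C1ra (−1.5) and C2 (−1.42) were also higher in astrocytes. Over the initiating components 5 of 11 were higher in either cell type, and of the 5 tested central and alternative pathway genes C3 and Hc, which encodes C5 (−5.64), were higher in astrocytes. Receptors lay with microglia in 9 of 11, among them Itgb2 (7.6), Itgam (7.5), C5ar1 (7.42) and C3ar1 (7.21), while Cd93 (−3.3) and Cr2 did not. Cd93 stood at 26.3, 176.5, 138 and 25.9 CPM in the astrocytes of WT mice 1 to 4. WT mice 1 and 4 were also lowest in endothelial markers, whose part in Cd93 was not tested. Regulators lay with astrocytes in 11 of 14, including Csmd1 (−6.11) and Clu (−4.94).

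The enzymes that cut App were divided as well. Bace1, the beta-secretase, stood at 24.9, 19.7, 25.3, 27 and 24.1 CPM in microglia and at 74.3, 82.1, 79, 86.5 and 79.1 CPM in astrocytes, without overlap (−1.73 ± 0.08 SE, adjusted p = 4.6e-08). Its homologue Bace2 stood at 20.8 CPM in astrocytes and 0.261 CPM in microglia (−6.3). The alpha-secretases Adam17 (2.28), Adam9 (1.49) and Adam10 (1.07) were higher in microglia, and so was the gamma-secretase subunit Ncstn (1.58), while its partners Aph1b (−4.11) and Aph1c (−1.69) were higher in astrocytes. In all 7 of 12 secretase genes were higher in microglia and 4 in astrocytes. Among relatives and partners of App the neuronal family member Aplp1 was higher in astrocytes (−3.05), while Itm2b, whose product inhibits amyloid formation, stood at 2827 against 1005 CPM in favour of microglia (1.5). Scaled over all 18 libraries, Aplp1 stood at 254, 280, 297, 675 and 306 CPM in the astrocytes of mice 1 to 5. The astrocyte library of mouse 4 was also highest in oligodendrocyte markers, whose part in Aplp1 was not tested. Of the genes of amyloid clearance 9 of 22 were higher in microglia, with the scavenger receptor Msr1 at 13.4 ± 2.27 against 0.0734 ± 0.12 CPM and Cst3 at a difference of 2.09. A further 12 were higher in astrocytes, with the receptor Lrp2 at −6.21 and neprilysin, Mme, at −6.06. Of 47 tested genes at Alzheimer risk loci 34 were higher in microglia and 10 in astrocytes (median 1.11). Cd33 (7.34) and Ms4a6d (7.32) led one side and Clu, Fermt2 (−4.68) and Slc24a4 (−4.49) the other.

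Lipid carriers were split between the cell types, and sterol synthesis genes lay with astrocytes. Apoe, the main lipid carrier of the brain, stood at 7706, 10082, 6560, 8068 and 6525 CPM in microglia and at 3493, 3109, 3378, 3019 and 3649 CPM in astrocytes, without overlap (1.21 ± 0.16 SE, adjusted p = 5.7e-05). Clu, which carries lipids and amyloid-beta, stood at 2648 ± 306 CPM in astrocytes and 93.5 ± 43.3 CPM in microglia. The list of lipoproteins and lipid transport split 21 to 14 of 38. Lpl, lipoprotein lipase, stood at 1047 against 14.9 CPM in microglia (6.13), and Pltp (−5.57) and the Apoe receptor Lrp8 (−5.29) were higher in astrocytes. Pltp stood at 116, 475, 450 and 179 CPM in the astrocytes of WT mice 1 to 4. Endothelial markers were likewise lowest in WT mice 1 and 4, and their part in Pltp was not tested. Of 24 cholesterol synthesis genes 22 were higher in astrocytes, with a median of −1.5, and Ebp alone was higher in microglia (0.86). Squalene epoxidase, Sqle, stood at 143 against 14.4 CPM (−3.31), Msmo1 at −2.32 and Fdft1 at −2.22.

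Glucose metabolism differed by gene form rather than as a whole: 20 of 37 tested genes were higher in microglia and 16 in astrocytes, with a median of 0.4. The families below were chosen after their values were seen and carry no test beyond that of each gene. The hexokinases Hk3 (7.76) and Hk2, at 534 ± 58.2 against 9.18 ± 1.48 CPM (5.87), were higher in microglia, and Hk1, at 187 against 48.9 CPM, in astrocytes (−1.94). Of glucose carriers Slc2a5 (7.22) and Slc2a3 (1.33) were higher in microglia and Slc2a1, also the carrier of vessels, in astrocytes (−2). Of phosphofructokinases Pfkl (1.01) stood against Pfkp (−3.79) and Pfkm (−3.88). Of lactate carriers Slc16a3 (5.59) stood against Slc16a1 (−2.36), and of lactate dehydrogenases Ldha (0.84) against Ldhb (−0.69). Of glycogen phosphorylases Pygl (0.86) stood against Pygb (−2.72) and Pygm (−4.58), of aldolases Aldoa (0.6) against Aldoc, and of the kinases that shut pyruvate dehydrogenase Pdk1 (2.28) and Pdk3 (0.82) against Pdk2 (−2.72) and Pdk4 (−4.94). Genes of the respiratory chain and citrate cycle lay closer together, 4 higher in microglia and 19 in astrocytes of 35 with a median of −0.3.

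**Figure D4:**
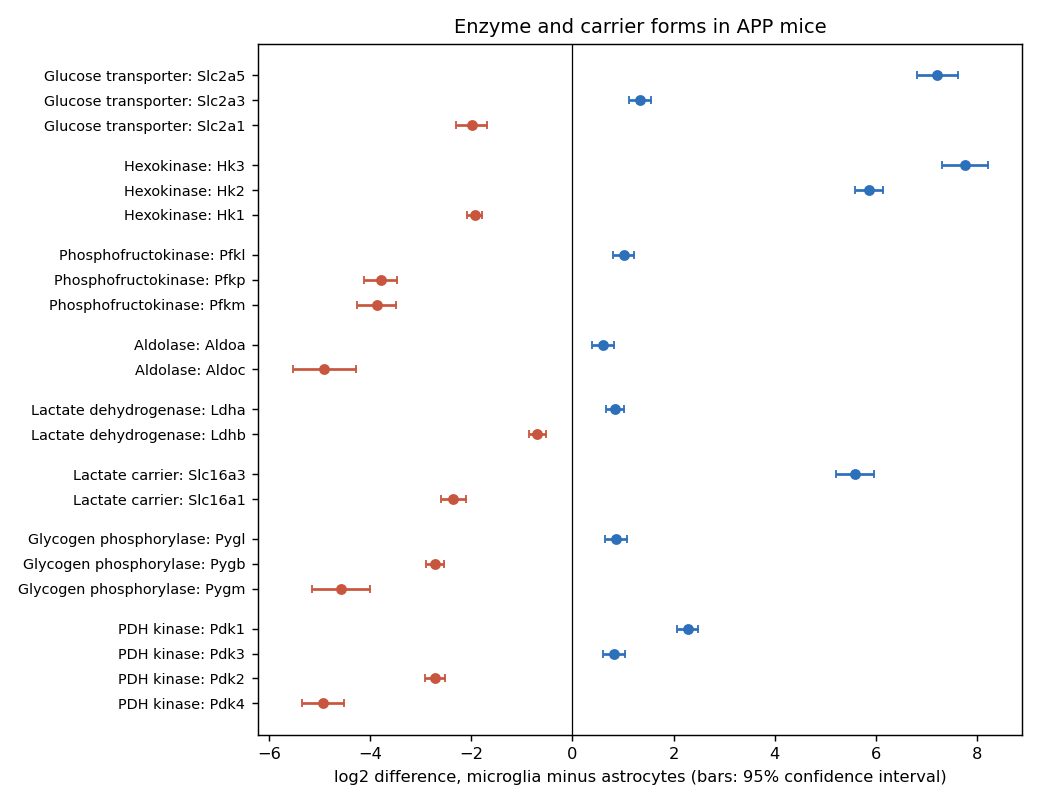
Log2 difference (microglia minus astrocytes, APP mice) with its 95% confidence interval for the forms of 8 enzymes and carriers of glucose use. In each family at least 1 form lies to the right of 0 (higher in microglia) and at least 1 to the left, from 7.76 for Hk3 to −4.94 for Pdk4.

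General cell functions were not level between the types. All 39 tested ribosomal protein genes were higher in microglia (median 2.35), with Rplp1 at 898 against 119 CPM. Immediate early and heat shock genes were higher in microglia in 24 of 28 (median 3.19), with Atf3 at 1553 against 19.9 CPM (6.29) and Zfp36 at 2439 against 53.3 CPM (5.52). Hsp90aa1 was higher in astrocytes (−1.62). Cell cycle genes were higher in microglia in 22 of 30 (median 1.36), with Mki67 at 25.4 against 5.26 CPM (2.31). Of 24 housekeeping genes 15 were higher in microglia and 3 in astrocytes, and Actb stood at 6394 against 2231 CPM (1.51).

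Ligands and receptors of 36 known pairs were read side by side, which measures RNA and no signal. In 9 pairs the ligand was higher in astrocytes and the receptor in microglia: Il34 with Csf1r, Cx3cl1 with Cx3cr1, Tgfb2 with Tgfbr2, Il33 with Il1rl1, C3 with C3ar1, Clu with Trem2, App with Cd74, Cd47 with Sirpa and Cd200 with Cd200r1. In 4 pairs it was the reverse: Osm with Osmr, Igf1 with Igf1r, Pdgfb with Pdgfrb and Fgf2 with Fgfr3. Osm stood at 162, 236, 155, 245 and 216 CPM in microglia and at 0.32 to 1.07 CPM in astrocytes, and Osmr at 0.919 to 2.63 and 65.1 to 77 CPM. Cx3cl1 stood at 73 to 84.9 CPM in astrocytes and 1.71 to 4.08 CPM in microglia, and Cx3cr1 at 22.7 to 33.5 and 4130 to 4854 CPM. Both partners were higher in microglia in 11 pairs, among them Csf1 (4.01) with Csf1r (7.47), and both in astrocytes in 4, among them Ptn (−5.06) with Ptprz1 (−5.11). The receptors Il1r1 (0.16, adjusted p = 0.091), Cd44 (0.19, adjusted p = 0.055) and Cxcr4 (0.24, adjusted p = 0.49) were not called, so the ligands Il1a, Il1b, Spp1 and Cxcl12 had a partner with no called difference. Pdgfrb is a mural cell marker, and mural markers were higher in astrocytes as given above. Igf1r stood at 222, 545, 448.5 and 204 CPM in the astrocytes of WT mice 1 to 4. Cd200, Il34, Cx3cl1 and Osmr were also lowest in WT mice 1 and 4 among these libraries, as were endothelial markers. The part of endothelial RNA in these genes was not tested.

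The astrocyte libraries of single mice moved some of these values. Igf1, a growth factor, stood at 338 to 462 CPM in microglia and at 83.3, 71.3, 76.7, 13.4 and 39.5 CPM in the astrocytes of mice 1 to 5, with a difference of 2.97 ± 0.41 (SE) and of 2.51 without mouse 4. Mbp, the myelin basic protein, stood at 118 to 245 CPM in microglia and at 41.7, 31, 42.4, 478 and 30.7 CPM in astrocytes. It was higher in microglia in 4 of 5 mice, by 1.39 ± 0.41 (adjusted p = 0.011). Without the pairing of mice the adjusted p was 0.67, and without mouse 2 it was 0.052. Trf, transferrin, stood at 619 CPM in the astrocytes of mouse 4 and 117 to 134 CPM in the others (3.36). The potassium channel Kcnk13 stood there at 14.8 CPM and at 1.17 to 2.79 CPM in the others (4.69). Oligodendrocyte markers were highest in the same library, and their part was not tested.

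A smaller set of genes was alike in both cell types. Of 2161 genes at a mean of 100 CPM or more, 346 (16%) had a 95% confidence interval within 0.5 of 0 on the log2 scale, and 158 of these were called all the same. Abca1, the cholesterol exporter, stood at 1075, 798, 779, 805 and 939 CPM in microglia and at 906, 915, 775, 647 and 874 CPM in astrocytes (0.1 ± 0.1 SE). Itm2c, a relative of Itm2b, stood at 1026 against 1171 CPM (−0.2), the App homologue Aplp2 at 701 against 678 CPM (0.04), and the sorting receptor Sort1 at 434 against 418 CPM (0.05). The lysosomal cholesterol exporter Npc1 stood at 357 against 346 CPM (0.04). With scaling by library totals alone these differences fell below 0 for Abca1, Aplp2, Sort1 and Npc1, and Itm2c stayed below 0.

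The difference between the cell types was then set against the same difference in WT mice. Of 15550 genes tested 3640 had a different contrast (23.4%), 1949 shifted toward microglia in APP (12.5%) and 1691 toward astrocytes (10.9%), and 289 of them were called in opposite directions. With scaling by library totals alone the numbers were 1150 and 3033. The APP mice were 4 female and 1 male and the WT mice 1 female and 3 male. The parts of genotype and sex in a shift were therefore not separated. Microglia marker RNA in the astrocyte libraries differed between the WT and APP mice. It was 0.217 to 0.283% of the same mouse's microglia in WT and 0.585 to 0.851% in APP. Of the 25 microglia markers 23 shifted toward astrocytes. Endothelial markers summed to 1893 to 6917 CPM in WT astrocytes and 5218 to 7664 CPM in APP astrocytes, with WT mice 1 and 4 lowest. Their part in the shifts was not tested, and without these WT mice 2535 genes were called.

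Several genes of disease-associated microglia were astrocyte-sided in WT and microglia-sided in APP. Gpnmb, a lysosomal glycoprotein, stood at 0.865 ± 0.767 CPM in WT microglia and 6.43 ± 1.84 CPM in WT astrocytes, and at 804 ± 157 and 14.3 ± 3.83 CPM in APP. Its contrast went from −2.88 to 5.83, a shift of 8.72 ± 0.50 (SE, adjusted p = 2.2e-06). Axl, a receptor for the uptake of dead cells, stood at 94 ± 11.6 and 353 ± 46.4 CPM in WT microglia and astrocytes and at 983 ± 144 and 309 ± 15.1 CPM in APP (shift 3.57 ± 0.18, adjusted p = 1.4e-06). Fam20c, a kinase of secreted proteins, shifted by 4.25, the collagen crosslinker Lox by 4.56, the oxygen sensor Egln3 by 5.37, Mamdc2 by 7.86 and Ctnna3 by 5.12. The Wnt antagonist Dkk2 went from 0.164 to 83.9 CPM in microglia and from 0.692 to 1.79 CPM in astrocytes (adjusted p = 4.4e-06). Fabp5, a fatty acid carrier, went from 2.74 ± 1.33 to 116 ± 19 CPM in microglia and from 80.9 ± 17 to 47.8 ± 5.21 CPM in astrocytes (shift 6.14 ± 0.32, adjusted p = 1.5e-06). Of the disease-associated list 25 of 40 shifted toward microglia and 8 toward astrocytes, and of the homeostatic list 2 and 22 of 30. The background for a shift is 12.5% and 10.9%.

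Metabolic lists shifted too. Of 24 cholesterol synthesis genes 21 shifted toward microglia, with a median contrast of −2.91 in WT and −1.43 in APP. Msmo1 went from 537 ± 135 CPM in WT astrocytes to 253 ± 46.8 CPM in APP astrocytes and from 34.4 ± 5.67 to 52.7 ± 7.64 CPM in microglia (shift 1.68 ± 0.25 SE, adjusted p = 0.00087). Of respiratory genes 33 of 35 shifted toward microglia (median −0.99 in WT, −0.23 in APP), of ribosomal protein genes 37 of 40 (1.43 and 2.41), of glucose genes 20 of 37 with 3 the other way (−1.37 and 0.46), and of lysosome genes 25 of 40 with 2 the other way (1.63 and 2.58). Class II antigen presentation genes shifted toward astrocytes in 9 of 15. Of the 6 genes followed in every library Cst7 shifted toward microglia (adjusted p = 0.031), at 4.6 CPM in WT microglia and 0.179 CPM in WT astrocytes. App (−0.49, adjusted p = 0.32), C3 (1.13, adjusted p = 0.082), Gfap (0.82, adjusted p = 0.2) and Aldoc (0.49, adjusted p = 0.57) were not called. Itgax and the genes with the largest shifts toward astrocytes had almost no reads in WT astrocytes: Itgax stood there at 0.01 CPM and in APP astrocytes at 9.39 CPM. Where a group's mean was below 0.3 CPM the fitted shift depends on the prior count and is not given.

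**Figure D5:**
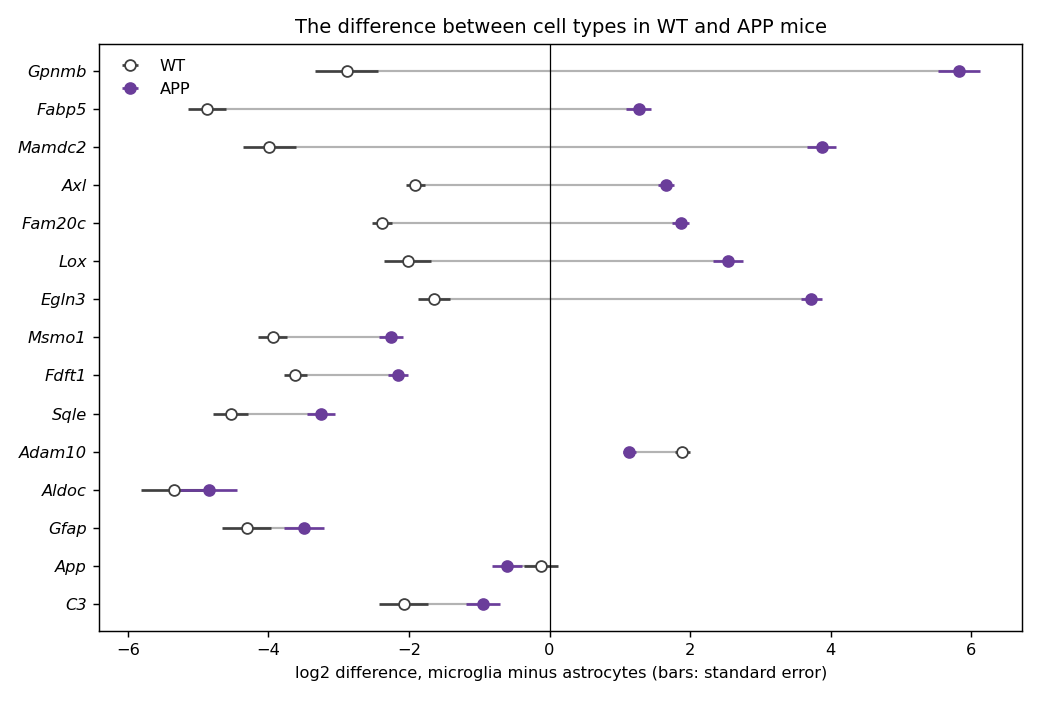
Log2 difference (microglia minus astrocytes) of 15 genes in WT mice (open circles) and APP mice (filled circles), with standard errors. Gpnmb, Fabp5, Mamdc2, Axl, Fam20c, Lox and Egln3 lie left of 0 in WT and right of 0 in APP, while Aldoc and Gfap stay left of 0 in both.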

How the data were processed

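RNA was measured by bulk sequencing of sorted microglia and astrocytes. Per the labels, deposited values were raw gene counts in 1 table for each cell type, with outlier libraries already left out. Per the submitters' processing notes, the tools were limma 3.46.0 and edgeR 3.32.1 for statistics, SAMtools 1.9 and STAR 2.7.3a for alignments, and Trimmomatic 0.39 and FastQC 0.11.8 for reads. How reads were counted, with which annotation and strand setting, was not stated, so overlapping and antisense genes cannot be told apart. The authors' normalized log2 tables were not used.

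The tables were joined by gene symbol. edgeR 4.0.16 in R 4.3.3 gave TMM factors, a filter (filterByExpr, 10 counts) and quasi-likelihood F-tests with the mouse as a block, first in the 10 APP libraries and then for the difference of contrasts in all 18. Groups came from titles, and mice from the animal numbers in the library names. Both cell types of a mouse share an animal, and same-mouse deviations from the group means correlated at 0.175, 0.129, 0.13, 0.164 and 0.0539. The microglia of mice 1 to 4 correlated best with their own mouse's astrocytes, and those of mouse 5 with another mouse's. Of 15016 tested symbols 14980 matched RefSeq GRCm38.p6. The fits were run on simulated counts in which few genes carried the tested difference. In the APP libraries most genes were called, and in the comparison with WT mice 23.4% were. Neither simulation therefore tests the scaling between cell types. With the mouse as a block, p-values in the APP libraries measure the spread of the within-mouse difference over 5 animals. Those of the comparison with WT mice measure it over 5 APP and 4 WT mice. Each animal had 1 library per cell type.

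The members, lists and ligand pairs were chosen with earlier results of these data known. Genes named are App, C3, Cst7, Itgax, Gfap and Aldoc, in each direction the 10 largest differences among called genes at 50 CPM or more without overlap and the 10 most abundant genes at least 32-fold higher, up to 4 list members in each direction at 5 CPM or more, ligand pairs, alike genes and the largest shifts against WT. Genes named outside this rule were chosen after their values were seen: Inpp5d, Havcr2, Vav1, Hc, Cr2 and the further enzyme forms. Alternatives were no block, library totals, upper-quartile factors, DESeq2 1.42.0, limma voom 3.58.1, no filter, at least 50 counts, a 2-fold threshold, all 18 libraries and leaving out each mouse, plus 2 chosen after seeing the data, leaving out Rn45s and WT mice 1 and 4.

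A few genes that the naming rule picked are not reported here.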

Additional observations from a re-analysis of the deposited data

Results flagged for a closer look

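Of 89 groups of 5 values examined, 9 had 1 value far from the other 4, and chance alone marks about 1 in 20 such groups. The microglia library of mouse 5 had 6.46% of its counts on Rn45s, against 3.2 to 3.68% in the others, and the highest Itgax, 2257 CPM against 1448 to 1674. In astrocytes App stood apart in mouse 4 (926 CPM, others 548 to 650), and C3 and Cst7 in mouse 3 (85.1 CPM, others 39.8 to 48.1, and 10.8 CPM, others 5.89 to 7.32). Summed oligodendrocyte markers reached 4286 CPM in the astrocytes of mouse 4, and the median within-mouse difference of that list was −2.60 there against 0.07 to 0.84 in the others. In the same mouse the median for Fc and phagocytic receptors was 2.705, against 3.09 to 3.24. The median of the antioxidant and iron list was −0.92 in mouse 1, against −0.60 to −0.50.

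The difference between cell types differed between APP and WT mice, by edgeR's test of the difference itself, for many of the genes named above, and those picked for the size of their shift or for opposite directions are given here with Cst7 and Itgax. Toward microglia the shifts on the log2 scale were 8.72 for Gpnmb, 7.86 for Mamdc2, 6.14 for Fabp5, 5.37 for Egln3, 5.12 for Ctnna3, 4.56 for Lox, 4.25 for Fam20c and 3.57 for Axl. Where a group's mean was below 0.3 CPM only the adjusted p is given: 0.0308 for Cst7, 4.45e-06 for Dkk2, 9.96e-05 for Baiap2l2, 0.00161 for Lgi2, 0.0086 for Itgax, 0.00445 for Trpm1, 0.000372 for Susd3, 0.000766 for Clec4a3, 0.00254 for Btk, 0.005995 for Bcl2a1b, 0.00816 for Clec4a2, 0.0094 for Ccr1, 0.0166 for Gpr65 and 0.0191 for Ccr2. Microglia marker RNA in astrocyte libraries differed between the genotypes as given above, and sex was unbalanced between them. The part of either in these shifts was not tested.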

How the results depend on the processing

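The count of called genes stayed within 1.5 times of 12598 under every alternative but the test against a 2-fold difference, which called 7107, of which 2682 were higher in microglia. Leaving out each mouse in turn gave 12085 to 12504. Without the replicate block, that is without pairing by mouse, 12737 genes were called, and 4020 in the comparison with WT, so the pairing changed neither count by over 1.5 times. It changed the call of Mbp, as given above. In the comparison with WT, library totals gave 1150 genes toward microglia and 3033 toward astrocytes, and leaving out each mouse gave 2911 to 3492 in all.

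Small differences changed sign under library totals: Abca1 −0.20, Aplp2 −0.25, Cd44 −0.10, Cxcr4 −0.045, Il1r1 −0.13, Npc1 −0.26 and Sort1 −0.24. The medians of the complement lists became −0.15 (initiating) and −0.20 (central), and the latter ran from −0.078 (without mouse 1) to 0.20 over the mice left out. Upper-quartile factors gave −0.00395 for Aplp2 and −0.0119 for Npc1. Leaving out each mouse in turn, Cxcr4 ran from −0.084 (without mouse 4) to 0.56, Aplp2 from −0.0179 (without mouse 5) to 0.095, and Npc1 from −0.0181 (without mouse 5) to 0.11. The oligodendrocyte median became 0.049 with DESeq2, and ran from −0.55 to 0.65, the latter without mouse 4. Without WT mice 1 and 4 the shift was −0.44 for Aldoc and 0.19 for App. The cause was not tested. Genes with under about 1 CPM in a cell type rest on few reads, so their folds are the least certain.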
